A study of Rattus norvegicus and Mus musculus with 24 samples.

Results

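The kidney cortex of 8 rats, numbered 25 to 32 in the sample titles, is described here: 4 Ctns knockout rats (Ctns KO, numbers 26, 28, 30 and 32) against 4 wild-type controls (WT, numbers 25, 27, 29 and 31). They were taken by genotype label and number and are 8 of the 24 animals of the series. No measured value enters that rule, but it was already known from these data that this range of numbers had the stronger response. The other rats carry the numbers 17 to 24, and what sets the ranges of numbers apart is not given in the labels. The animals were Sprague-Dawley rats that lacked Ctns or were littermate controls, matched for age and sex according to the methods. Neither the age nor the sex of the sequenced rats is given in the labels, and no deletion limited to one cell type is named. The tissue is named as kidney cortex, the cell type as proximal tubule cells, and the extraction text speaks of microdissected tubules of mice. No treatment is named for either genotype, and 1 RNA sequencing library was made per rat.

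CTNS encodes cystinosin, the lysosomal membrane protein that exports cystine, and its loss causes cystinosis, in which cystine builds up in lysosomes. The proximal tubule is the segment that reabsorbs most filtered solutes and proteins, and its failure in cystinosis gives the renal Fanconi syndrome with urinary loss of phosphate, amino acids, glucose, bicarbonate and small proteins. Tubule cells that are injured commonly lose their transporters, re-enter the cell cycle and switch on genes of injury and repair.

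The libraries held 24684097 to 31147003 reads in KO and 28548939 to 40629873 reads in WT rats. Levels are given as counts per 1000000 reads (CPM) after TMM scaling, which sets each library against the bulk of its genes, and they compare one gene between rats, not different genes with each other. Of 14931 gene symbols, 11633 passed the filter on low counts, and 5100 of these (43.8%) were called, which means that the edgeR quasi-likelihood test of KO against WT gave a Benjamini-Hochberg adjusted p below 0.05. Gene lists below are counted over their members that passed the same filter, which a gene can pass through the genotype where it is high. The calls were 2534 higher in KO (21.8%) and 2566 lower (22.1%). The rises were larger than the falls. Of the symbols called higher 812 rose more than 2-fold and 226 more than 4-fold, whereas 204 and 9 of those called lower fell that far. The median log2 fold change over all symbols tested was -0.01, with quartiles of -0.26 and 0.26. The first principal component held 72.0% of the variance and separated the genotypes, with KO rats at 17.99 to 33.00 and WT rats at -32.7 to -21.3. The balance of the calls rested on the scaling: with library totals in place of TMM factors, a choice made after seeing the data, 4252 symbols were called higher and 1135 lower, and the median moved to 0.15. TMM factors were 1.004 to 1.08 in KO and 0.888 to 0.951 in WT rats, and changes are given relative to the median symbol. WT rat 27 and KO rat 28 lay farthest out on the first principal component. WT rat 27 was the WT library farthest from the KO group for 43.8% of the symbols called higher and 51.9% of those called lower. Among KO libraries, rat 28 was farthest from the WT group for 47.6% of the symbols called higher. For those called lower it was rat 32 in 40.6%, rat 30 in 28.1% and rat 28 in 26.4%.

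**Figure D1:**
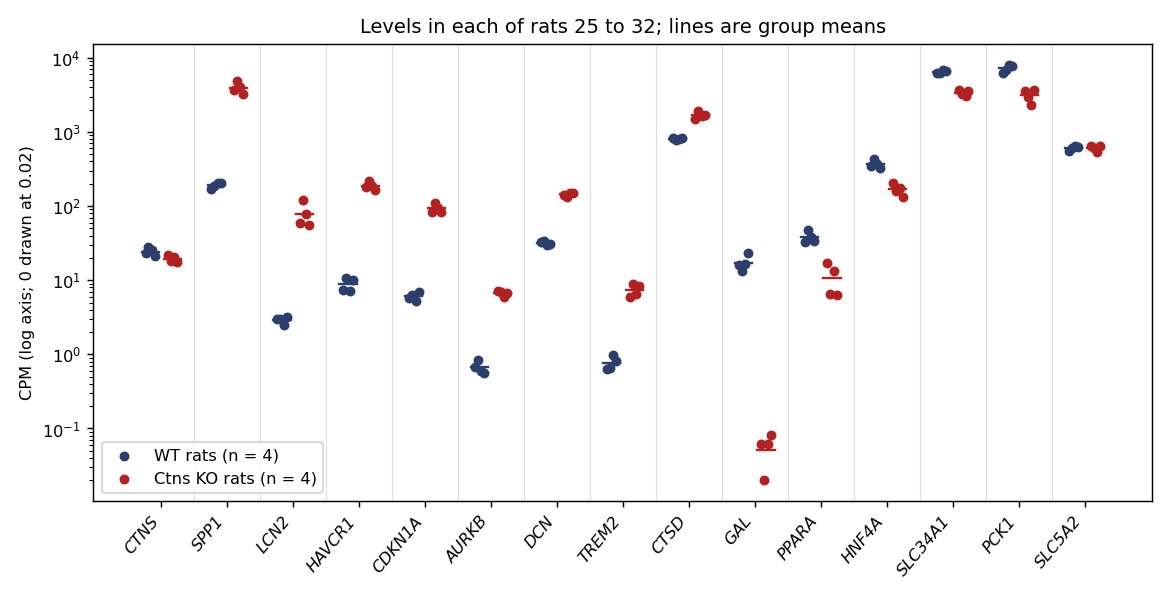
CPM on a log axis for 15 genes in each of the 8 rats, with WT rats in blue, Ctns KO rats in red and a line at each group mean (n = 4). The groups were apart for SPP1, LCN2, HAVCR1, CDKN1A and AURKB, which were higher in KO, and for GAL, PPARA, HNF4A, SLC34A1 and PCK1, which were lower, while CTNS and SLC5A2 overlapped. The value of 0 (GAL in KO rat 28) is drawn at the bottom of its axis.

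CTNS itself changed little. Its level was 22.97, 27.8, 25.2 and 21.4 CPM in WT rats 25, 27, 29 and 31 and 22.2, 17.9, 20.3 and 17.3 CPM in KO rats 26, 28, 30 and 32, the order used for all values below. The groups overlapped, and the log2 fold change of -0.32 ± 0.11 (SE, n = 4 per group) passed the threshold in edgeR with an adjusted p of 0.0391. It did not pass with library totals (-0.16, adjusted p = 0.314), nor without any one of WT rats 25, 27 and 29 or KO rats 28, 30 and 32 (adjusted p 0.0531 to 0.114). Reads were counted over the gene as a whole, and which part of it the KO rats lack is not given in the sources used here, so this count does not check the labels.

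The 10 largest rises by the naming rule were those of IL24, GALNT13, SLC7A11, CA3, LCN2, FST, SPP1, FGB, CDKN1A and TUBB3. SPP1, which encodes the secreted matrix protein osteopontin, stood at 172, 189, 204 and 202 CPM in WT and 3715, 4934, 4043 and 3202 CPM in KO rats. This is a log2 fold change of 4.38 ± 0.14 (adjusted p = 4.6e-08, edgeR). LCN2, which encodes the iron-carrier binding protein NGAL released by injured tubules, rose from 3.02, 3.001, 2.45 and 3.23 to 58.2, 122, 77.05 and 54.8 CPM (4.74 ± 0.27, adjusted p = 1.12e-06, edgeR). KO rat 28 held the highest value of both genes, and the lowest KO value of each was more than 10 times the highest WT value. HAVCR1, the injury marker KIM-1, rose from 7.297, 10.8, 7.09 and 10.1 to 182, 219, 188 and 165 CPM (4.41 ± 0.15, adjusted p = 5.47e-08, edgeR), but its values were not whole reads in the deposited table and it is uncertain to that extent. CDKN1A, the cyclin-dependent kinase inhibitor p21, rose from 5.73, 6.39, 5.24 and 6.83 to 84.3, 111, 93.8 and 84.2 CPM (3.95 ± 0.12, adjusted p = 4.6e-08, edgeR).

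Several of the steepest rises started from almost no reads. IL24, a cytokine of the interleukin-10 family, had 0 reads in all 4 WT rats and 583 reads over the 4 KO rats, 91 to 208 in each. Set against a floor of 3 reads over the WT group, IL24 was at least 194-fold higher in KO rats. IL19, another member of that family, had 0 reads in WT and 172 in KO rats, at least 57.3-fold higher against the same floor. SLC7A11, the cystine-glutamate exchanger of the plasma membrane that brings cystine into the cell, had 6 reads over the WT rats and 239 over the KO rats, a ratio of 39.8 after library size was allowed for (95% interval 18.02 to 109.5, for counting error only). In CPM, SLC7A11 stood at 0.112, 0.0776, 0 and 0 in WT and 1.52, 2.17, 2.33 and 2.02 in KO rats (log2 fold change 5.21 ± 0.46, adjusted p = 1.94e-05, edgeR). GALNT13, a glycosyltransferase that starts O-linked sugar chains, had 5 WT and 330 KO reads, a ratio of 65.9 (27.97 to 204). FST, which encodes the activin antagonist follistatin, had 21 and 455 reads, a ratio of 21.6 (13.99 to 35.3), and TUBB3, a tubulin best known from neurons, 18 and 248, a ratio of 13.8 (8.53 to 23.6). In each of these 6 genes the lowest KO rat lay above the highest WT rat. CA3, a carbonic anhydrase abundant in muscle and fat, rose from 0.631–0.7503 to 16.1–24.1 CPM (log2 fold change 4.91, adjusted p = 5.47e-08, edgeR), and FGB, the beta chain of fibrinogen, from 0.965–1.58 to 19.4–33.1 CPM (4.32, adjusted p = 4.76e-07).

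One fall was of another order than the rest. GAL, which encodes the neuropeptide galanin, stood at 15.9, 13.4, 16.3 and 23.4 CPM in WT rats and 0.0621, 0, 0.0613 and 0.0807 CPM in KO rats. The KO group had 6 reads of it in all against 2008 in WT, a ratio of 335 (95% interval 154 to 914). Its log2 fold change was -8.29 ± 0.34 (adjusted p = 1.73e-07, edgeR), and in rats 17 to 24 it was -7.97 (adjusted p = 6.16e-08). Falls of the other genes named by size were smaller. STK32C, a little studied kinase, fell from 1.58–3.4997 to 0.214–0.374 CPM (-2.86, adjusted p = 7.12e-05). NOS1, the neuronal nitric oxide synthase, which marks the macula densa in the cortex, fell from 1.41–3.08 to 0.403–0.858 CPM (-2.08, adjusted p = 0.0004896), and PRIMA1, which anchors acetylcholinesterase in the membrane, from 184–281 to 47.3–85.9 CPM (-1.81, adjusted p = 4.86e-05). USP26 (-2.05), ARFGEF3 (-1.90), CACNB4 (-1.80) and AMER2 (-1.76) fell as well, all with groups that did not overlap. CES1P1, a human symbol under which rodent carboxylesterases can be pooled, varied widely within each genotype, at 116, 110.02, 65.99 and 65.8 CPM in WT and 40.6, 1.73, 14.9 and 22.6 CPM in KO rats. Its log2 fold change of -2.16 ± 0.63 (adjusted p = 0.0204, edgeR) missed the threshold with no filter on low counts (adjusted p = 0.0540) and without WT rat 27, KO rat 30 or KO rat 32 (adjusted p 0.0554 to 0.0993).

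Genes of the differentiated proximal tubule fell together. Of 31 listed transporter genes of this segment 26 were tested, of which 22 fell, 1 rose and 3 did not pass, with a median log2 fold change of -0.64 against -0.01 over all symbols, and against the 22.1% of symbols called lower. Their levels summed to 22147, 22874, 25194 and 24633 CPM in WT rats and 14622, 13580, 12358 and 14372 CPM in KO rats. The groups did not overlap, and KO rat 30 was lowest. For 19 of the 26 each KO rat lay below each WT rat, as did 20.4% of all symbols, and 40.5% of all symbols had groups apart in one direction or the other. Without any one rat 20 to 22 members were called lower. In bulk tissue, fewer proximal tubule cells and less RNA of these genes per cell cannot be told apart. SLC34A1, the main sodium-phosphate cotransporter of the brush border, stood at 6219, 6304, 6851 and 6609 CPM in WT and 3649, 3256, 3079 and 3617 CPM in KO rats (-0.93 ± 0.078, adjusted p = 1.39e-05, edgeR). SLC6A19, the apical carrier of neutral amino acids, fell from 288, 382, 357 and 337 to 182, 143, 140.4 and 145 CPM (-1.15 ± 0.11, adjusted p = 2.72e-05). SLC5A8, a sodium-coupled carrier of lactate, fell by 1.44 on the log2 scale (adjusted p = 4.08e-05) and SLC4A4, the basolateral bicarbonate exit, by 1.21 (adjusted p = 0.007195). For SLC4A4 the WT rats lay at 317–692 CPM with rat 27 highest, and the KO rats at 109–254 CPM with rats 28 and 32 lowest.

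The fall was not shared by every transporter. SLC5A2, the glucose carrier SGLT2 of the early proximal tubule, was at 560.3, 609, 655 and 636 CPM in WT and 652, 616, 536 and 640.02 CPM in KO rats. Its groups overlapped, and its log2 fold change of -0.0038 ± 0.078 had an adjusted p of 0.972 (edgeR). SLC7A9, the light chain of the apical cystine and basic amino acid carrier, was at -0.16 ± 0.072 (adjusted p = 0.0894), and it passed the threshold when all 16 rats were fitted together (adjusted p = 0.0335) and without WT rat 25 (adjusted p = 0.0413). SLC2A2, the basolateral glucose carrier GLUT2, was the 1 member that rose, from 119, 156, 143 and 127 to 204, 203, 189 and 164 CPM (0.49 ± 0.0996, adjusted p = 0.00295). The third member that did not pass was SLC22A7, an organic anion carrier (0.94 ± 0.36, adjusted p = 0.0568), which passed with DESeq2 (adjusted p = 0.0432), with library totals (0.0304) and without KO rat 26 (0.01003) or WT rat 31 (0.0453). SLC5A2, SLC7A9, SLC22A7 and SLC2A2 were singled out after their values were seen.

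Genes of the apparatus that takes up filtered protein fell as well. Of 13 endocytic receptors and partners 9 fell and none rose (median log2 fold change -0.37), where 22.1% of all symbols were called lower. With library totals 7 fell and 1 rose. CLCN5, the endosomal chloride-proton exchanger mutated in Dent disease, fell from 33.5, 53.1, 33.4 and 23.9 to 19.8, 11.1, 21.7 and 10.1 CPM (-1.19 ± 0.29, adjusted p = 0.00743, edgeR). DAB2, the adaptor of the endocytic receptors, fell from 821–1165 to 410.1–607 CPM (-0.88, adjusted p = 0.000677), and MYO6, the motor that moves endocytic vesicles, by 0.80 on the log2 scale (adjusted p = 0.0005504). LRPAP1, the receptor chaperone, was at -0.49 (adjusted p = 0.000202), and CUBN, which encodes the receptor cubilin, at -0.37 (adjusted p = 0.00829), which was no longer past the threshold with library totals (-0.21, adjusted p = 0.102). Brush border enzymes and scaffolds gave 9 falls and no rise among 13 (median -0.47), and 8 falls and no rise with library totals. ALPL, the tubular alkaline phosphatase, fell from 376, 377, 439 and 426 to 243, 241, 188 and 202 CPM (-0.88 ± 0.096, adjusted p = 6.05e-05). DPP4, a peptidase, and PDZK1, the scaffold that holds transporters in the brush border, each fell by about 0.66 on the log2 scale (adjusted p 0.00364 and 0.000276), and CLTRN, the partner of apical amino acid carriers, by 0.57 (adjusted p = 0.000411).

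Transcription factors that maintain this cell type were lower too, 11 of 16, with 1 higher and a median of -0.63, beside 22.1% of all symbols called lower. With library totals 8 were lower and 2 higher. PPARA, the nuclear receptor that drives fatty acid oxidation, stood at 33.02, 47.4, 37.9 and 33.5 CPM in WT and 17.2, 6.49, 13.5 and 6.25 CPM in KO rats (-1.79 ± 0.30, adjusted p = 0.000839, edgeR). HNF4A, the nuclear receptor required for proximal tubule maturation, stood at 344, 426, 366 and 323 CPM in WT and 207, 159.8, 176 and 133 CPM in KO rats (-1.10 ± 0.13, adjusted p = 0.000122), and its relative HNF4G was at -1.14 (adjusted p = 0.000346). PPARA and HNF4A had their highest WT value in rat 27 and their lowest KO values in rats 28 and 32. The member that rose was PAX8 (0.20, adjusted p = 0.0155), a factor of tubule development, and it lost the call when all 16 rats were fitted together (adjusted p = 0.216).

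**Figure D2:**
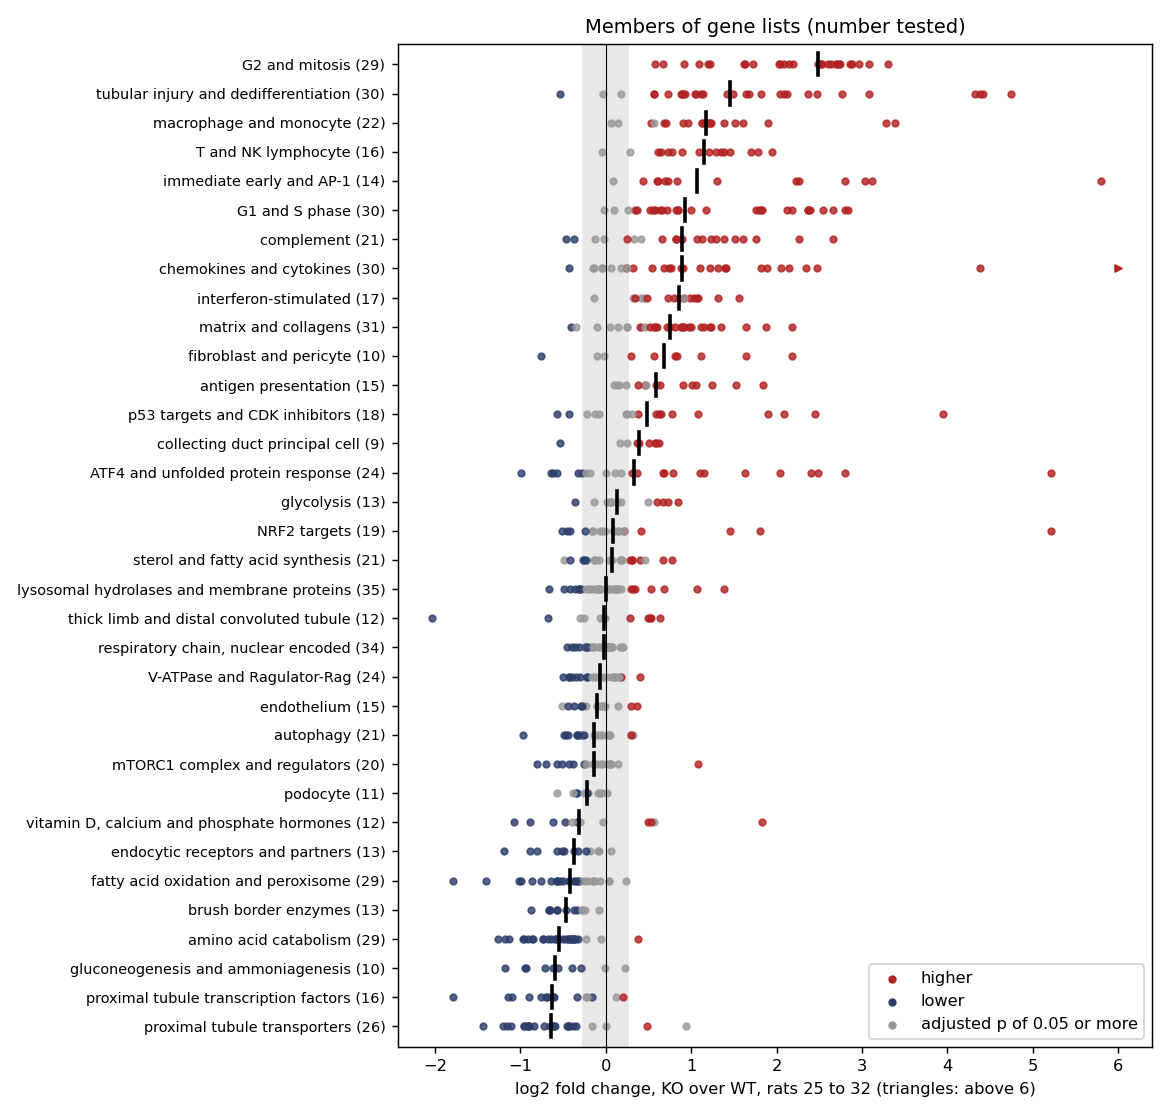
Log2 fold change (KO over WT) of each tested member of the gene lists with at least 9 tested members. Red points were called higher, blue lower and grey neither, arrowheads stand for values beyond the right edge, black bars are list medians, and the grey band spans the quartiles of all 11633 symbols (-0.26 to 0.26). The medians ran from -0.64 for proximal tubule transporters to 2.49 for G2 and mitosis.

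Metabolism moved with the transporters, and the falls counted here stand beside 22.1% of all symbols called lower. Enzymes of amino acid catabolism, a main task of proximal tubule cells, gave 26 falls and 1 rise among 29 tested of 34 listed (median -0.54), and their summed level was 24903 to 27385 CPM in WT against 14554 to 17040 CPM in KO rats. The rise was that of CDO1, whose call was lost without any one of WT rats 27 and 29 or KO rats 28 and 32 (adjusted p 0.0900 to 0.107). KMO, the kynurenine hydroxylase, fell from 303, 291, 314 and 284 to 144, 105, 100.1 and 145 CPM (-1.26 ± 0.12, adjusted p = 3.03e-05, edgeR). DMGDH, which breaks down dimethylglycine, fell by 1.18 and BHMT, which remakes methionine from homocysteine, by 1.13 on the log2 scale (adjusted p 1.12e-06 and 8e-05). HAO2, a peroxisomal oxidase of hydroxy acids and the member with the most reads, fell from 9917–10983 to 5273–6425 CPM (-0.87, adjusted p = 3.13e-05). Fatty acid oxidation and the peroxisome gave 19 falls and no rise among 29 tested of 30 listed (median -0.42). CAT, the peroxisomal catalase, fell from 1579, 1554, 1581 and 1466 to 836, 748, 683 and 768 CPM (-1.02 ± 0.076, adjusted p = 6.25e-06). Gluconeogenesis and ammonia formation gave 8 falls among 10 (median -0.59): PCK1, the rate-limiting enzyme of glucose formation, stood at 6189.8, 6759, 8060.2 and 7791 CPM in WT and 3618, 2952, 2309 and 3731 CPM in KO rats (-1.19 ± 0.15, adjusted p = 0.000143). PC and FBP1, enzymes of the same pathway, fell by 0.95 and 0.93 on the log2 scale (adjusted p 3.1e-05 and 5.02e-05).

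Glycolysis and the respiratory chain held smaller shares of called genes than the 43.8% of all symbols. Of 13 glycolytic genes 4 rose (HK2, LDHA, PFKP and PKM) and 1 fell (ENO1), with a median of 0.13. LDHA, the lactate dehydrogenase of glycolytic cells, was at 206–247 CPM in WT and 329.5–418 CPM in KO rats (log2 fold change 0.72, adjusted p = 0.000124, edgeR). PFKP and PKM, further enzymes of the pathway, rose by 0.67 and 0.59 (adjusted p 0.000224 and 0.000141). HK2 lost its call without any one of WT rats 27 and 29 or KO rats 28 and 30 (adjusted p 0.0686 to 0.0809). With library totals the glycolytic count became 8 higher and 0 lower. Of 34 nuclear-encoded subunits of the respiratory chain 7 fell and none rose (median -0.03), but with library totals 6 rose and 3 fell, so no direction is given for this group.

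In the opposite direction, 27 of the 30 tested genes of tubular injury and dedifferentiation (35 listed) rose and 1 (ITGB6) fell, with a median log2 fold change of 1.46 beside the 21.8% of all symbols called higher. Their summed level was 1697, 1598, 1731 and 1812 CPM in WT rats and 6799, 8665, 7209 and 6317 CPM in KO rats. ITGB6 lost its call with library totals (adjusted p = 0.0524). SPP1 alone was the larger part of that sum in each KO rat. The immediate early genes and AP-1 subunits, which are switched on by growth and stress signals, gave 13 rises among 14 (median 1.07). The remaining member, NR4A1, was at 0.083 ± 0.18 (adjusted p = 0.739, edgeR). FOSL1, an AP-1 subunit, had 3 reads over the WT rats, all in rat 27, and 191 over the KO rats, a ratio of 63.6 (95% interval 21.4 to 311). FOSB and EGR2, further factors of this response, had ratios of 8.88 (5.44 to 15.4) and 8.05 (5.68 to 11.7), and JUND, the member with the most reads, rose from 74.6–92.3 to 122–154 CPM (0.69, adjusted p = 0.000209, edgeR). Among 24 genes of the ATF4 and unfolded protein response 13 rose and 6 fell (median 0.33). ATF3, a stress-induced factor, rose from 2.79, 3.47, 3.47 and 2.41 to 16.6, 23.2, 21.1 and 24.005 CPM (2.80 ± 0.16, adjusted p = 1.07e-06), TRIB3, a brake on that response, by 2.48 (adjusted p = 1.86e-05) and HSPA5, the chaperone BiP, by 0.30 (adjusted p = 0.0104). Of 19 NRF2 targets, genes of the antioxidant response, 5 rose (HMOX1, SRXN1, SLC7A11, NQO1 and NFE2L2) and 4 fell, shares near the 21.8% and 22.1% of all symbols, and NQO1 lost its call without WT rat 25 (adjusted p = 0.0536). HMOX1, the heme oxygenase, rose from 5.51, 5.85, 6.07 and 5.87 to 18.2, 22.7, 18.7 and 21.4 CPM (1.80 ± 0.099, adjusted p = 9.26e-07), and SRXN1, which repairs peroxiredoxins, by 1.46 (adjusted p = 0.0001997). With library totals the NRF2 count became 9 higher and 2 lower.

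Genes of G2 and mitosis rose together. The 29 tested genes of G2 and mitosis (36 listed) each rose, with log2 fold changes of 0.58 to 3.30 and a median of 2.49, against 21.8% of all symbols. Groups did not overlap for 28 of them, where 20.1% of all symbols lay apart in this direction. Their summed level was 77.2, 83.4, 70.9 and 73.8 CPM in WT rats and 315, 303, 317 and 276 CPM in KO rats. AURKB, the kinase of chromosome segregation, stood at 0.6702, 0.828, 0.603 and 0.557 CPM in WT and 7.05, 6.93, 5.91 and 6.78 CPM in KO rats (3.30 ± 0.16, adjusted p = 5e-07, edgeR). MKI67, the proliferation marker Ki-67, stood at 6.14, 7.45, 4.83 and 5.83 CPM in WT and 29.99, 24.5, 32.4 and 24.4 CPM in KO rats (2.20 ± 0.15, adjusted p = 3.46e-06). CDCA3, a trigger of mitotic entry, rose by 3.09 (adjusted p = 5.14e-07), UBE2C, which tags cyclins for destruction, by 2.97 (adjusted p = 6.32e-06), and CDK1, the mitotic kinase, from 2.26–2.98 to 17.2–18.6 CPM (2.74, adjusted p = 1.49e-07).

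The promoters of these genes are shown because they share short motifs by which mitotic genes are known to be timed. The CCAAT box is bound by NF-Y, and the CHR element, TTTGAA, by the DREAM and B-MYB complexes. The sequences below are from RefSeq on build GRCr8, 250 bases before to 50 after the start of the gene, on the strand of the gene, with CCAAT and TTTGAA on either strand in capitals. CDK1 was picked after its values were seen, MKI67 is the member with the most reads, and CDCA3 has no CHR word in its window.
CDK1 (chr20:19265043-19265342, plus strand): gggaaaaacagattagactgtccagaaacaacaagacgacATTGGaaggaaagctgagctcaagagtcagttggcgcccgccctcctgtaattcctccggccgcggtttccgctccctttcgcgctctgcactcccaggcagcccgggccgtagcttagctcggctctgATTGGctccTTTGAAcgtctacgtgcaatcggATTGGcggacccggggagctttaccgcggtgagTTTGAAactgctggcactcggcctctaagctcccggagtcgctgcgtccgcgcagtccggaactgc
MKI67 (chr1:199952544-199952843, minus strand): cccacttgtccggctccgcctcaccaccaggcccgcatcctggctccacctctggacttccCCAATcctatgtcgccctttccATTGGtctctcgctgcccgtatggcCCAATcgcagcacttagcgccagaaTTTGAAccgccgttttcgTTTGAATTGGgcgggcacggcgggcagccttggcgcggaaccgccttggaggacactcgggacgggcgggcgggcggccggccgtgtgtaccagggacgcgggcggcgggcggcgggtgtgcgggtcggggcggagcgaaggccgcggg
CDCA3 (chr4:159320953-159321252, plus strand): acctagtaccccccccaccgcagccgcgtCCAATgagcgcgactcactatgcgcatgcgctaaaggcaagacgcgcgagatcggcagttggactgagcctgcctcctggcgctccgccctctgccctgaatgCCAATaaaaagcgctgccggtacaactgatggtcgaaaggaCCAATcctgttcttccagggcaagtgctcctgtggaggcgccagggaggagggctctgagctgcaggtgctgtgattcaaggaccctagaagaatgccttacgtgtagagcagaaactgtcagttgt
CDK1 had 3 CCAAT and 2 CHR words, MKI67 had 4 and 2 of which 1 pair overlaps, and CDCA3 had 3 and 0. Of the 29 members 24 had a promoter in the table. CCNA2, AURKB, FOXM1, TPX2 and UBE2C had none. A CHR word was found in 16 of the 24 (66.7%) against 19.4% of all 27457 genes of the promoter table, and a CCAAT word in 18 (75%) against 39.6%. Of 24 matched genes of the proximal tubule transporters, 2 (8.33%) held a CHR and 3 (12.5%) a CCAAT word. The HNF1 word GTTAATNAT was in 0 of these 24 and the HNF4 word CAAAGTCCA in 1 (4.17%), against 0.834% and 0.444% of all genes, and the mitotic genes gave the same 0 and 1. These counts describe letters in a window and not bound sites.

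The rises of the G1 and S phase list were smaller. Of 30 members 26 rose and none fell (median 0.92), beside 21.8% of all symbols called higher. UHRF1, which keeps DNA methylation through replication, stood at 0.298, 0.595, 0.679 and 0.334 CPM in WT and 3.32, 3.703, 4.197 and 2.58 CPM in KO rats (2.84 ± 0.27, adjusted p = 2.9e-05, edgeR). CLSPN, a replication checkpoint adaptor, and E2F8, a repressor of the E2F family, had ratios of 7.17 (95% interval 4.62 to 11.6) and 6.39 (4.34 to 9.74) from pooled reads. CCND1, cyclin D1 and the member with the most reads, was at 309, 283, 331 and 317 CPM in WT and 323, 328, 338 and 326 CPM in KO rats, with overlapping groups and a log2 fold change of 0.0904 ± 0.062 (adjusted p = 0.257). It passed the threshold only with library totals (0.25, adjusted p = 0.00546) among the alternatives tried. Among 18 p53 targets and inhibitors of cyclin-dependent kinases 10 rose and 2 fell, SESN1 and SESN2 (median 0.48). That compares with 21.8% of all symbols called higher and 22.1% called lower. Beside CDKN1A, PHLDA3, a p53-induced inhibitor of AKT, rose from 7.37, 7.84, 8.07 and 9.24 to 38.7, 53.6, 41.6 and 43.1 CPM (2.45 ± 0.11, adjusted p = 3.57e-07), and CDKN2B, the inhibitor p15, had 13 WT and 57 KO reads, a ratio of 4.38 (2.37 to 8.72).

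**Figure D3:**
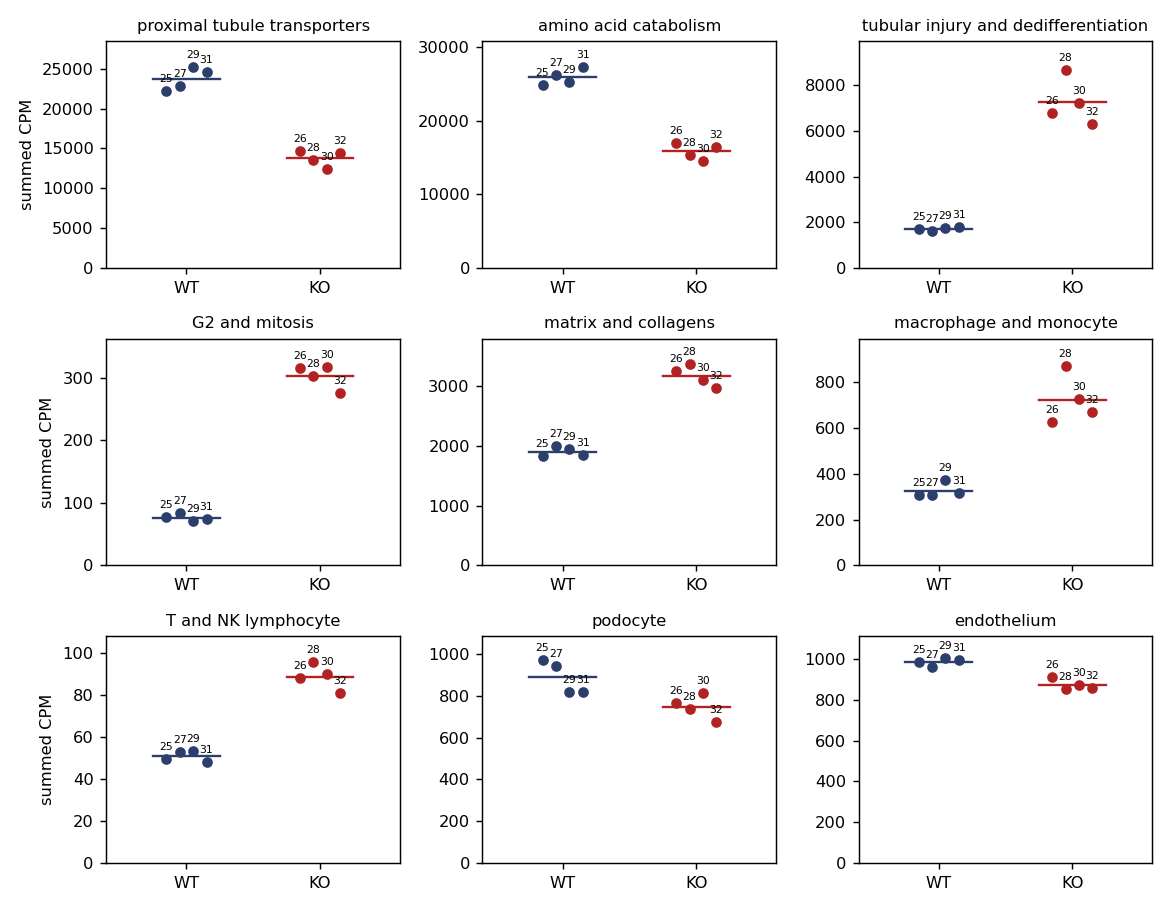
Summed CPM of 9 gene lists in each rat, with WT rats in blue, KO rats in red, rat numbers beside the points and a line at each group mean (n = 4). All axes start at 0. The groups were apart in all 9 panels, by the least for podocyte markers, where KO rat 30 (816 CPM) lay just under WT rat 29 (819 CPM). The sums are after TMM scaling. With library totals in its place no podocyte or endothelial fall stayed called, and the list medians were -0.05 and 0.06.

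Immune and stromal genes rose alongside, and the rises counted here stand beside 21.8% of all symbols called higher. Of 22 tested macrophage and monocyte markers (24 listed) 19 rose and none fell (median 1.17), and their summed level was 309, 308, 376 and 317 CPM in WT rats and 629, 872, 727 and 671 CPM in KO rats. GPNMB, a glycoprotein of lipid-laden and lysosome-stressed macrophages, rose from 3.798, 5.77, 4.902 and 5.01 to 46.7, 58.7, 53.6 and 45.6 CPM (3.39 ± 0.13, adjusted p = 1.49e-07, edgeR). TREM2, a receptor of tissue macrophages, rose from 0.633, 0.647, 0.9804 and 0.817 to 5.99, 8.9002, 6.43 and 8.43 CPM (3.28 ± 0.20, adjusted p = 1.85e-06). MRC1, the mannose receptor, and C1QA, a chain of complement C1q, rose by 1.90 and 1.38 (adjusted p 3.93e-05 and 5.02e-05). Markers of T and NK lymphocytes gave 14 rises and no fall among 16 tested of 21 listed (median 1.15), at 48.2 to 53.4 summed CPM in WT and 81.1 to 95.7 in KO rats. CD4 weighs heavily in this sum, with 34.1 of the 81.1 CPM in KO rat 32. The chains of the T cell receptor complex CD3D (1.95), CD3E (1.78) and CD3G (1.70) rose with adjusted p of 0.000225, 5.23e-05 and 0.000153, and CD4 by 0.65 (adjusted p = 0.000569). Of 4 tested B cell markers 3 rose (CD22, CD79B and BLNK), and of 4 tested neutrophil markers 1 rose (CSF3R). CD79B lost its call with limma-voom (adjusted p = 0.0507) and without any one of KO rats 26, 28 and 32 or WT rats 27 and 29 (0.0592 to 0.0781).

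Signals that recruit or arm these cells moved in the same direction. The chemokines and cytokines gave 22 rises and 1 fall (IL33) among 30 (median 0.89), with IL24, IL19 and SPP1 at the head. SPP1 stands in the injury list too, so these lists are not fully separate. Rises counted in this paragraph stand beside 21.8% of all symbols called higher. The complement list gave 15 rises and 2 falls (C5 and CD55) among 21 (median 0.89), with C6 from 0.186–0.957 to 1.98–2.97 CPM (2.26, adjusted p = 0.000997, edgeR), CFB, the activating protease of the alternative pathway, from 9.06–20.3 to 36.04–61.7 CPM (1.76, adjusted p = 0.000263), and CLU, clusterin, from 196–242 to 343–462 CPM (0.89, adjusted p = 6.13e-05). C5 lost its call with library totals (adjusted p = 0.253), among symbols with a mean of at least 1 CPM (0.0548) and without any one of WT rats 27 and 29 or KO rats 28, 30 and 32 (0.0800 to 0.120), and CD55 with library totals (0.108) and without WT rat 25 (0.0528). C4A rose by 2.66 (adjusted p = 3.81e-07), though its values were not whole reads. Antigen presentation gave 10 rises among 15 (median 0.59). Its steepest members were the subunits of the immunoproteasome, PSMB8 (13.3, 11.4, 16.3 and 15.1 CPM in WT, 41.2, 62.5, 52.2 and 44.3 in KO, log2 fold change 1.84, adjusted p = 9.97e-06), PSMB10 (1.52, adjusted p = 5.96e-05, values not whole reads) and PSMB9 (1.25, adjusted p = 9e-05). CD74, the invariant chain of class II molecules and the member with the most reads, overlapped between groups (0.14 ± 0.12, adjusted p = 0.393). Interferon-stimulated genes gave 12 rises among 17 (median 0.85). ISG15, a ubiquitin-like modifier, rose from 8.41, 3.23, 9.77 and 6.16 to 15.6, 21.8, 22.98 and 19.8 CPM (1.56 ± 0.28, adjusted p = 0.00124), OASL by 1.31 and IFI44 by 1.08 (adjusted p 0.00228 and 0.000806). WT rat 27 had the lowest WT value of all 3 of these genes.

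Of 31 tested genes of matrix and collagens (38 listed) 22 rose and 1 (THBS1) fell, with a median of 0.75, beside 21.8% of all symbols called higher. Their summed level was 1832 to 1997 CPM in WT and 2975 to 3373 CPM in KO rats. DCN, the proteoglycan decorin, stood at 33.2, 34.1, 30.1 and 30.5 CPM in WT and 142, 134, 152 and 149 CPM in KO rats (2.18 ± 0.071, adjusted p = 4.6e-08, edgeR). MMP2, a gelatin-cutting protease, rose by 1.88 (adjusted p = 1.43e-06), LUM, the proteoglycan lumican, by 1.64 from 30 WT to 92 KO reads (adjusted p = 0.00333), COL3A1, a fibrillar collagen, from 47.1–59.4 to 94.2–126 CPM (1.11, adjusted p = 2.99e-05), and SPARC, the member with the most reads, by 0.40 (adjusted p = 0.000583). THBS1 lost its call with library totals (adjusted p = 0.230) and without any one of KO rats 26, 28 and 32 or WT rats 27 and 29 (0.0538 to 0.0980). Fibroblast and pericyte markers gave 7 rises and 1 fall (NT5E) among 10 (median 0.69), beside the same 21.8% of all symbols called higher. Of these markers DCN, LUM, COL1A1, COL1A2 and COL3A1 stand in the matrix list too. Smooth muscle markers gave 2 rises (DES and TAGLN) and 1 fall (MYLK) among 6, beside 43.8% of all symbols called. MYLK lost the call with library totals (adjusted p = 0.270), among symbols with a mean of at least 1 CPM (0.0524), and without any one of WT rats 25, 27 and 29 or KO rats 28 and 32 (0.0760 to 0.132).

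Markers of other parts of the nephron show that the libraries held more than proximal tubule. UMOD, the thick limb protein uromodulin, stood at 2263, 1876, 1849.9 and 2139 CPM in WT and 2573, 3428, 3065 and 3492 CPM in KO rats (0.63 ± 0.11, adjusted p = 0.000992, edgeR). The thick limb and distal tubule list as a whole gave 5 rises (UMOD, CALB1, TRPV5, CLDN19 and BSND) and 2 falls (CLDN10 and KLK1) among 12 (median -0.02). Over all symbols 21.8% were called higher and 22.1% lower. The list summed to 4307 to 5213 CPM in WT and 5537 to 6200 CPM in KO rats. The steepest fall of the list was KLK1, the tissue kallikrein (-2.03, adjusted p = 4.71e-05, values not whole reads). Principal cell markers of the collecting duct gave 6 rises and 1 fall (AQP3) among 9 (median 0.38). They summed to 915 to 1059 CPM in WT and 1164 to 1284 CPM in KO rats. SCNN1B, a subunit of the epithelial sodium channel, rose from 70.9–79.2 to 106–112 CPM (0.57, adjusted p = 3.28e-05). HSD11B2, which shields the mineralocorticoid receptor, rose from 429–504 to 613–743 CPM (0.50, adjusted p = 0.000812). Intercalated cell markers gave 1 fall (KIT) among 7 and, with library totals, 4 rises and no fall. KIT lost its call among symbols with a mean of at least 1 CPM (adjusted p = 0.0581) and without any one of WT rats 25, 27 and 29 or KO rats 26, 28 and 32 (0.0752 to 0.111). Podocyte markers gave 3 falls (PODXL, CLIC5 and PTPRO) and no rise among 11 (median -0.22), which became 1 fall without KO rat 28 and 6 without KO rat 30, with PTPRO lost as well without WT rat 25, KO rat 26, WT rat 27 or KO rat 32 (adjusted p 0.0609 to 0.115) and PODXL, podocalyxin, at -0.35 (adjusted p = 0.0131). Endothelial markers gave 2 rises (ESAM and CLDN5) and 4 falls (KDR, VWF, TIE1 and EMCN) among 15 (median -0.11), a share of calls near the 43.8% of all symbols. CLDN5 lost its call without any one of KO rats 26 and 28 or WT rats 29 and 31 (adjusted p 0.0611 to 0.0933), and VWF without KO rat 28 (0.0538). KDR, a VEGF receptor, was at -0.37 (adjusted p = 0.00199) and ESAM, a junction protein, at 0.37 (adjusted p = 0.0105). With library totals none of the podocyte or endothelial falls remained called. The summed level of the urothelial markers was under 1 CPM in every rat. Adrenal markers summed to 7.30 to 9.13 CPM in WT and 11.3 to 18.4 CPM in KO rats. Fat markers summed to 59.6 to 74.1 CPM in WT and 77.0 to 86.4 CPM in KO rats. For both lists each KO rat thus lay above each WT rat. Fat markers gave 3 rises (FABP4, CFD and CIDEC) among 5, and adrenal markers 1 (CYP11A1, edgeR adjusted p = 0.305 with all 16 rats in one fit) among 2. Blood and skeletal muscle markers gave none among 4. The part that shifts in cell composition had in the changes of the tubular genes was not tested.

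Lysosomal genes, nearest to the site of cystinosin, did not move one way. Of 35 tested hydrolases and membrane proteins (44 listed) 7 rose and 7 fell, beside 43.8% of all symbols called, with a median of -0.00205. CTSD, cathepsin D, stood at 834, 771, 796 and 835 CPM in WT and 1509, 1917, 1649 and 1693 CPM in KO rats (1.07 ± 0.0799, adjusted p = 6.32e-06, edgeR). CTSZ and CTSK, further cathepsins, rose by 1.38 and 0.68 (adjusted p 2.66e-05 and 0.000381), whereas CTSB, cathepsin B and the member with the most reads, overlapped between groups (-0.083 ± 0.11, adjusted p = 0.551). With library totals the list gave 16 rises and 4 falls. Subunits of the V-ATPase and the Ragulator-Rag complex, which acidify the lysosome and hold mTORC1 on its surface, gave 2 rises (RRAGD and ATP6V1D) and 8 falls among 24 (6 and 4 with library totals), also near the 43.8% of all symbols called. By direction, 21.8% of all symbols were called higher and 22.1% lower. Falls outnumbered rises in this list, but not with library totals. ATP6V1D lost its call without any one of WT rats 25 and 27 or KO rats 26 and 32 (adjusted p 0.0515 to 0.0627). ATP6V0A4, a proton pump subunit of the tubule, fell from 775, 798, 806 and 782 to 562, 539, 546 and 569 CPM (-0.51 ± 0.056, adjusted p = 6.89e-05).

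The mTORC1 complex and its regulators gave 1 rise and 7 falls among 20 (4 and 3 with library totals), a share of calls near the 43.8% of all symbols. By direction, 21.8% of all symbols were called higher and 22.1% lower. Falls outnumbered rises in this list, but not with library totals. EIF4EBP1, the translation repressor that mTORC1 phosphorylates, rose from 7.45, 6.39, 9.58 and 8.28 to 14.1, 20.2, 14.5 and 17.8 CPM (1.08 ± 0.15, adjusted p = 0.000283, edgeR). TSC1, an inhibitor of the pathway, was at -0.70 (adjusted p = 0.0117, and 0.0550 with library totals), and SESN2, the leucine sensor sestrin 2, at -0.57 (adjusted p = 0.00269). These are RNA levels, which do not measure the activity of the kinase. Autophagy genes gave 1 rise and 9 falls among 21 (5 and 4 with library totals), again a share of calls near the 43.8% of all symbols. Here too falls outnumbered rises, beside 22.1% of all symbols called lower, but not with library totals. PINK1, the kinase that marks damaged mitochondria for removal, fell from 157, 159, 169.7 and 164 to 84.5, 82.004, 76.4 and 86.8 CPM (-0.97 ± 0.058, adjusted p = 1.43e-06), and SQSTM1, the autophagy receptor p62, rose from 552–612 to 648–750.1 CPM (0.29, adjusted p = 0.00733).

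Genes of hormone systems changed in both directions. Of 12 genes of vitamin D, calcium and phosphate control 3 rose (TRPV6, TRPV5 and CALB1) and 5 fell (CYP27B1, PTH1R, S100G, ATP2B1 and FGFR1). Over all symbols 21.8% were called higher and 22.1% lower. CYP27B1, which makes active vitamin D, fell from 3.83, 6.08, 5.81 and 6.16 to 3.38, 2.17, 2.88 and 1.82 CPM (-1.08 ± 0.22, adjusted p = 0.00289, edgeR). S100G lost its call without any one of WT rats 25 and 31 or KO rats 28 and 30 (adjusted p 0.0506 to 0.0658), and ATP2B1 and FGFR1 with library totals (0.0792 and 0.108). PTH1R, the receptor of parathyroid hormone, fell by 0.61 on the log2 scale (adjusted p = 0.000128), and TRPV6, a calcium channel, rose from 0.484–1.13 to 2.27–3.002 CPM (1.83, adjusted p = 0.000274). Sterol and fatty acid synthesis gave 6 rises and 4 falls among 21, a share of calls near the 43.8% of all symbols. The count became 10 and 0 with library totals, and 1 to 4 falls without any one rat, the fewest without KO rat 28. The renin-angiotensin and erythropoietin list gave 2 rises (AGT and HSD11B2) and no fall among 5, beside the 21.8% of all symbols called higher.

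The same genotypes were compared in the 8 rats numbered 17 to 24, which share no animal with these. There, 843 of 11610 symbols (7.26%) were called, 589 higher (5.07%) and 254 lower (2.19%), and the count of 843 fell to 549 without KO rat 20, 522 without WT rat 21 and 504 without KO rat 24. Of the symbols tested in both ranges, 546 were called higher in both, 197 lower in both and 1 in opposite directions. The difference between the genotype effects, tested directly as an interaction over all 16 rats, passed the threshold for 1745 of 11839 symbols (14.7%), 841 above and 904 below 0. With library totals these became 2309 and 347. Of the 1732 of these tested in every fit, 1710 had the larger effect in rats 25 to 32 and 1316 had the same sign in both ranges. The first of these counts restates what was known when these rats were chosen and is no independent support for a stronger response. Among 4270 symbols called in rats 25 to 32 and not in rats 17 to 24, 1432 differed by this test. The WT rats of the ranges differed from each other for 2503 symbols (21.1%), among them 579 of those 1732. The labels do not say what separates the ranges, so the number range and other differences between the animals cannot be told apart. The count of 1745 fell to 1010 without KO rat 28, 1135 without KO rat 22 and 1163 without WT rat 27.

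**Figure D4:**
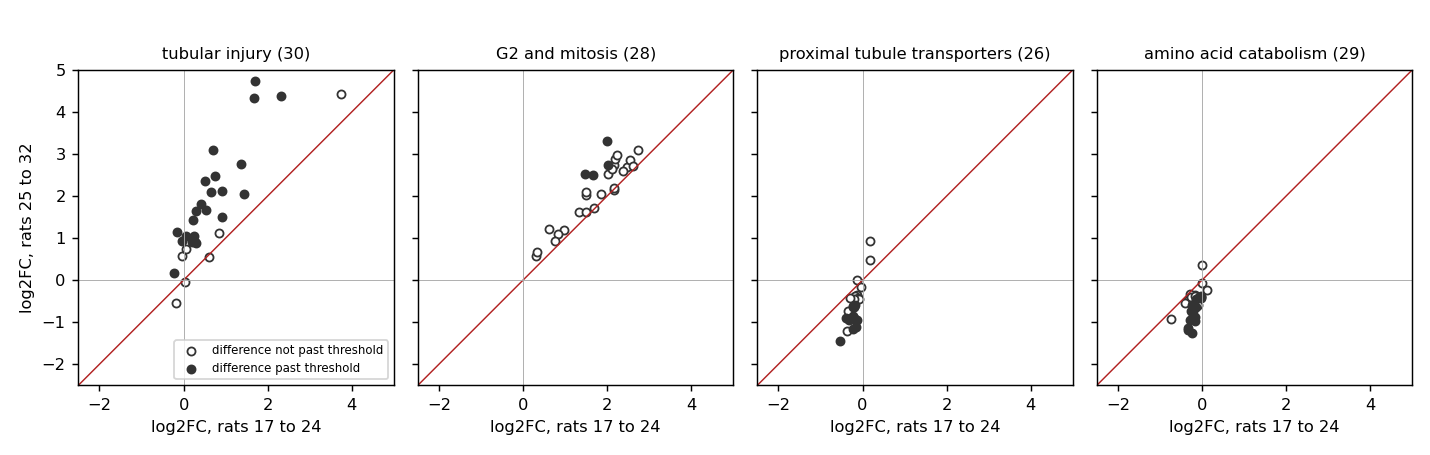
Log2 fold change (KO over WT) in rats 17 to 24 on the x axis and in rats 25 to 32 on the y axis for members of 4 gene lists tested in both (numbers in the titles). The red line marks equal effects, and filled points are members whose difference between ranges passed the threshold. Most injury genes lay above the line and most transporters and amino acid enzymes below it, and 4 of the 28 mitotic genes drawn are filled.

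Gene groups held different numbers of members that differed between the ranges. Of 30 injury genes 23 had a larger log2 fold change in rats 25 to 32 by the direct test, where 7.1% of all symbols did, and their median was 0.46 in rats 17 to 24 and 1.46 here. Without any one rat the count was 20 to 24. LCN2 differed by 3.04 (adjusted p = 0.000217, edgeR), with 1.71 in rats 17 to 24. FGB differed by 2.66 (adjusted p = 3.14e-05), FGG, the gamma chain of fibrinogen, by 2.40 (adjusted p = 0.00288), and CDKN1A by 2.17 (adjusted p = 3.14e-05). ADRA1D, an adrenergic receptor, differed by 2.25 (adjusted p = 0.000421). HAVCR1 rose in both ranges, by 3.73 in rats 17 to 24, and its difference of 0.69 ± 0.28 did not pass (adjusted p = 0.105). Mitotic genes were also higher in rats 17 to 24, where 25 of 28 were called and the median was 1.92. The median difference between the ranges was 0.35 for this list, -0.41 for the transporters and -0.36 for the amino acid enzymes. The difference passed for 4 of 29 (7 with library totals), with MKI67 at 0.045 ± 0.23 (adjusted p = 0.912) and AURKB at 1.32 ± 0.24 (adjusted p = 0.00267).

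Tubular genes differed the other way. Of 26 proximal tubule transporters 13 had a lower log2 fold change in rats 25 to 32, where 7.64% of all symbols did, and the median in rats 17 to 24 was -0.21 with 6 falls. The count of 13 was 10 with library totals and 9 to 14 without any one rat. Of 29 amino acid enzymes 15 differed (11 with library totals), with a median of -0.19 and 8 falls in rats 17 to 24. SLC34A1 differed by -0.60 (adjusted p = 0.00253, edgeR), HNF4A by -0.82 (adjusted p = 0.00537) and PPARA by -1.42 (adjusted p = 0.0202, and 0.0526 without WT rat 27). The lowest differences over all symbols with at least 1 CPM were those of CHRNA2 (-1.66), an acetylcholine receptor subunit, ESR1 (-1.51), the estrogen receptor, OSBPL8 (-1.49), a lipid transfer protein, PPP1R16B (-1.49) and APOB (-1.48), the lipoprotein protein. ESR1 stood at 19.6, 25.4, 14.8 and 14.4 CPM in WT and 8.91, 4.93, 6.71 and 5.33 CPM in KO rats (-1.51, adjusted p = 0.000465) and at 0.0016 on the log2 scale in rats 17 to 24 (adjusted p = 0.998).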

How the data were processed

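RNA was sequenced from the kidneys of 24 animals, of which rats 25 to 32 are reported and rats 17 to 24 compared. The labels give kidney cortex and proximal tubule cells, and the methods poly(A) selected, stranded libraries read in pairs on a NovaSeq instrument. The submitters' processing notes name bcl2fastq 2.20, STAR 2.7.3, DESeq2 1.24.0, R 3.6.1 and the builds rn5 and mm10 without saying which step used which. The authors deposited 1 table of estimated counts per species, with human style gene symbols, under which several rodent genes can be pooled. In the rat table each value was a count plus a constant of 0.167, which was taken off, and 97.7% of the values were then whole reads within 0.01. The 533 symbols that were not whole were rounded and kept. No 2 libraries of a group agreed within sampling noise, since the lowest chi-square per degree of freedom over 12 pairs was 12.0. The 95 symbols whose values were identical to those of another symbol, in 43 sets, include none of the genes named. The mouse table was not used here, and Y-linked genes are not analysed here.

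Counts were filtered (filterByExpr), scaled by TMM and tested with the quasi-likelihood test of edgeR 4.0.16 in R 4.3.3, with KO against WT within 8 rats and an interaction over 16 rats for the difference between number ranges. The p-values are two-sided, were adjusted over all symbols tested by the Benjamini-Hochberg method, and were called at a threshold of 0.05. The scripts were tested on simulated data. Levels are CPM, and intervals of read ratios are exact 95% intervals that cover counting error only. A floor of 3 reads over the group was used where a group had 0. Alternatives were DESeq2 1.42.0, its size factors in edgeR, limma-voom 3.58.1, other filters, mitochondrial genes left out (20.6% to 23.6% of reads), whole-read symbols only, library totals without TMM (added after seeing the data), 16 rats in one fit, and each rat left out in turn.

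The animals, gene lists and rules were chosen with earlier results of these data known. Genes were named by rule: CTNS, the 10 largest rises and falls with at least 1 CPM, whole reads and groups apart, up to 3 members per list with the largest changes and the member with the most reads, and the 5 largest and smallest differences between number ranges. HK2 and the other members named in parentheses to account for small counts, with NR4A1, SLC5A2, SLC7A9, SLC22A7, SLC2A2, PAX8, CUBN and CDK1, were chosen after their values were seen. Not every gene that the rule names is reported here. Promoters were read from a RefSeq table on GRCr8 by symbol.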

Additional observations from a re-analysis of the deposited data

Results flagged for a closer look

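Among 126 genes given with values, each genotype's 4 rats were searched for a lone value far from the other 3, and 8 of 252 groups held one. Chance gives about 1 in 20 such groups. The lone values were SLC6A19 in KO rat 26 (182 CPM), CLSPN in KO rat 30 (1.44 CPM), CD4 in KO rat 32 (34.1 CPM), COL3A1 in WT rat 27 (59.4 CPM), C6 in KO rat 32 (1.98 CPM), FOSL1 in WT rat 27 (0.0776 CPM), JUND in KO rat 28 (154 CPM) and CYP27B1 in WT rat 25 (3.83 CPM).

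For 69 of the 126 genes the genotype effect differed between rats 25 to 32 and rats 17 to 24 by the interaction test of edgeR. Over all symbols 14.7% did so. Many of the 126 genes were named for large changes in rats 25 to 32, and some for this same difference. Their larger share follows from that choice and is no independent result. Differences are given as the log2 fold change in rats 25 to 32 minus that in rats 17 to 24. Injury and stress genes had positive differences: LCN2 (3.04), FGB (2.66), FGG (2.40), SPP1 (2.06), CDKN1A (2.17), PHLDA3 (1.62), ATF3 (1.38), TRIB3 (1.84) and JUND (0.70). The receptor ADRA1D differed by 2.25. Among immune, complement and proteasome genes the differences were GPNMB (1.11), TREM2 (1.54), C1QA (0.88), C6 (1.94), C4A (1.05), CLU (0.69), PSMB8 (1.23), PSMB9 (0.93) and PSMB10 (0.90). Matrix genes gave DCN (1.07), MMP2 (1.12) and SPARC (0.32), mitotic genes AURKB (1.32) and CDK1 (0.73), glycolytic genes LDHA (0.53), PFKP (0.51) and PKM (0.54), cathepsins CTSZ (0.88), CTSD (0.86) and CTSK (0.53), distal nephron genes UMOD (0.65), HSD11B2 (0.56), SCNN1B (0.44) and KLK1 (-1.45), and the translation repressor EIF4EBP1 (0.77).

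Genes of the proximal tubule had negative differences. Transporters and endocytic genes gave SLC34A1 (-0.60), SLC5A8 (-0.91), SLC6A19 (-0.93), CLCN5 (-1.10), DAB2 (-0.74), MYO6 (-0.59) and LRPAP1 (-0.35), brush border genes ALPL (-0.78), DPP4 (-0.53), PDZK1 (-0.38) and CLTRN (-0.37), all of which lost the call in 9 to 16 alternatives, transcription factors PPARA (-1.42), HNF4A (-0.82) and HNF4G (-1.04), and metabolic enzymes CAT (-0.79), KMO (-1.02), DMGDH (-0.84), BHMT (-0.80), HAO2 (-0.69), PC (-0.61) and FBP1 (-0.56). The remaining differences were NOS1 (-1.31), USP26 (-1.41), PRIMA1 (-1.23), AMER2 (-1.25), KDR (-0.34), ATP6V0A4 (-0.36), TSC1 (-0.70), PINK1 (-0.67), CHRNA2 (-1.66), ESR1 (-1.51), OSBPL8 (-1.49), PPP1R16B (-1.49) and APOB (-1.48). The calls of NOS1, CLCN5 and TSC1 were lost in 11 to 14 alternatives and those of SLC5A8, APOB and C6 in 7 or 8. What gave rise to the lone values or to the differences was not tested.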

How the results depend on the processing

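No paired analysis was possible because the groups compared share no replicate numbers. For rats 25 to 32 the count of symbols called was 3946 to 5242 without any one rat and 4739 to 5915 under the other alternatives. No call among the named genes changed sign, and the signs of the other symbols were not compared. Library totals without TMM, chosen after seeing the data, moved the median log2 fold change from -0.01 to 0.15. With them 4252 symbols were higher and 1135 lower in KO rats 25 to 32, the difference between number ranges was called for 2656 symbols (2309 above, 347 below), and the WT rats of the ranges differed with 703 symbols positive and 2450 negative. CTNS was then at -0.16 (edgeR adjusted p = 0.314). Without any one rat CTNS was at -0.39 to -0.24. In rats 17 to 24 DESeq2 called 469 symbols lower in place of 254. Without any one rat, 2145 to 2540 symbols were higher and 1801 to 2702 lower in rats 25 to 32, 504 to 930 were called in rats 17 to 24 (392 to 618 higher, 112 to 312 lower), and 1010 to 2392 differed between the ranges (487 to 1025 above, 523 to 1388 below). The WT rats of the ranges differed for 1852 to 2648 symbols. The counts moved over 1.5-fold in rats 17 to 24 without KO rat 20 (549), WT rat 21 (522) or KO rat 24 (504), and between the ranges without KO rat 22 (1135), WT rat 27 (1163) or KO rat 28 (1010). Below 0 they moved so without KO rat 22 (573), WT rat 27 (602), KO rat 28 (523) and KO rat 30 (1388). The cause was not tested. Of the 126 genes given with values, 116 kept their side of the threshold under every alternative, and the others were CTNS, CES1P1, CCND1, PODXL, KDR, TSC1, SLC7A9, SLC22A7, CUBN and PAX8. SLC5A2, CTSB and NR4A1, which were not called, changed sign in at least 1. Of 47 further members named only to account for counts, 22 lost their call in at least 1 alternative, 14 of them with library totals. The difference between ranges kept its side for 90 of the 126. Of the 69 genes past its threshold, 17 lost it in at least 1 of up to 24 alternatives: ALPL in 16, NOS1 in 14, DPP4 in 13, CLCN5 in 12, TSC1 in 11, PDZK1 in 10, CLTRN in 9, SLC5A8 in 8, APOB and C6 in 7, SPARC in 5, ATP6V0A4 in 4, and EIF4EBP1, KDR, KLK1, MYO6 and PPARA in 1 each. Genes with few reads in a group, such as SLC7A11 with 6 in WT and GAL with 6 in KO rats, have fold changes that depth limits.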
